A study of Mus musculus with 11 samples.

Results

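Quadriceps muscle from mice with severe cachexia was set directly against quadriceps from mice with moderate cachexia, and the comparison took 7 of the 11 samples of the series. Cachexia was caused by C26, a mouse colon carcinoma line injected under the skin of female CD2F1 mice whose labelled age was 5 to 6 weeks. The 3 moderate mice had lost about 10% of body weight at day 19 after injection (the labels call this stage early), and the 4 severe mice had lost about 15% at day 24. The remaining 4 mice carried no tumor. They took no part in the test and are given only as the level of healthy muscle. Weight loss, days with the tumor and day of collection all changed together between the stages and cannot be told apart. Total RNA of 1 whole muscle sample per array was hybridized to Illumina MouseWG-6 v2.0 arrays. The mice carry the numbers of their columns, which are moderate 5, 9 and 12 and severe 11, 13, 15 and 16. Each sample is called a mouse here, although the labels do not state that each came from a separate animal. A probe was tested if its signal stood above background (detection p under 0.01) throughout at least 1 stage. This left 18181 of 45281 probes and 9831 named genes, each read from its brightest probe. Levels are log2 signals, a difference is severe minus moderate, a gene passed at a Benjamini-Hochberg adjusted p under 0.05 from limma, and ± gives the SD over mice.

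Wasting muscle breaks down its own protein by the ubiquitin-proteasome system and by autophagy. Transcription factors of the FOXO family switch on genes of both routes, among them the muscle ubiquitin ligases Trim63 (MuRF1) and Fbxo32 (atrogin-1), when insulin and IGF signaling is weak, and glucocorticoids act on several of the same genes. Muscle also carries the myogenic factors, such as Myod1 and Myf6, which direct muscle-specific transcription, and the chaperones and Z-disc proteins that keep the contractile apparatus in order.

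Muscle of severe cachexia had lower levels of the atrophy genes Trim63 and Fbxo32, of the growth brakes Sesn1 and Ddit4 and of the autophagy kinase Ulk1 than muscle of moderate cachexia, and higher levels of the myogenic factors Myod1 and Myf6, of the Z-disc genes Synpo2l and Synpo2 and of the chaperone genes Cryab and Hspb3. In whole muscle, fewer cells of a type and less RNA per cell cannot be told apart. Of the 9831 genes, 241 passed the test (2.45%), 153 of them lower (1.56%) and 88 higher (0.895%) in severe cachexia. At the probe level 432 passed (2.38%), of which 64 had no single gene symbol. The genes that were lower differed by 1.42-fold to 6.28-fold with a median of 1.92-fold, and those that were higher by 1.46-fold to 6.23-fold with a median of 1.78-fold. The stages did not overlap in any of the 241, where 2015 of all genes tested (20.5%) did not overlap. Of the 241, 220 were read from a probe detected on all 7 arrays. An unadjusted p under 0.05 was found for 2118 genes. The count rested on few mice. Without moderate 5 it was 19, without moderate 12 it was 4, without severe 13 it was 68, without severe 15 it was 106 and without severe 16 it was 27, while without moderate 9 it was 206 and without severe 11 it was 240. All 241 differences kept their direction in each of these fits, in which the largest adjusted p of any of them was 0.192. The genes that passed in every one of them were Synpo2l, Dynll1, Pdk4 and Pim3. A fit in which all 11 arrays shared 1 estimate of the spread gave 760 genes, 239 of the 241 among them.

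**Figure D1:**
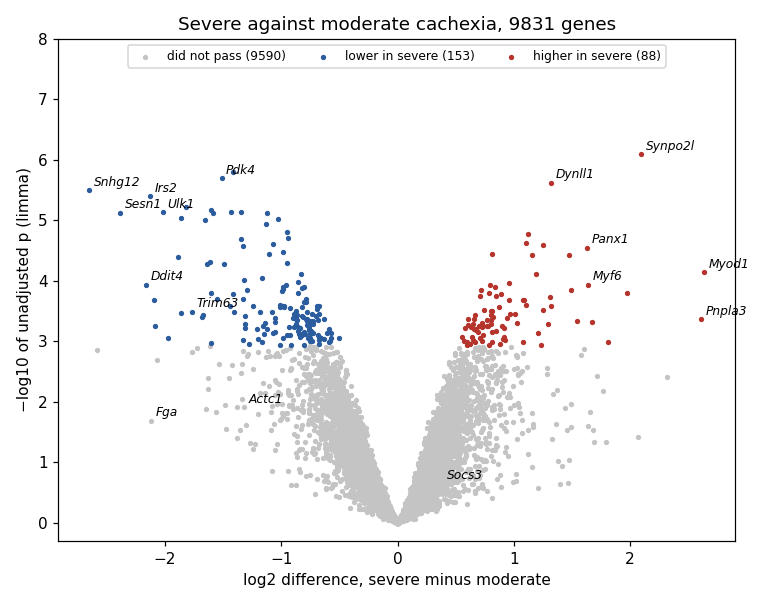
Log2 difference between severe and moderate cachexia (x axis) against −log10 of the unadjusted p from limma (y axis), with 1 point per gene, for the 9831 genes tested. Blue points are the 153 genes lower and red points the 88 genes higher in severe cachexia that passed. Actc1, Fga and Socs3 lie among the grey points that did not pass.

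Levels of most of the genes that were lower stood above healthy muscle in moderate cachexia and met the range of healthy muscle in severe cachexia. Of the 153 genes, 145 had every moderate array above every control array. In severe cachexia 111 had levels that met the range of the controls, 28 were still above it on every array and 14 lay below it on every array. Of the 88 genes that were higher, 64 had every moderate array below every control array. In severe cachexia 51 of them met the range of the controls, 11 were still below it and 26 lay above it. Over all genes tested, 23.6% lay above and 23.7% below the controls in moderate cachexia, and 15.6% and 16.2% did in severe cachexia. These positions are a description, since the moderate and severe arrays that give them also chose the genes. Genes whose severe arrays all lay above the controls, while their moderate arrays did not all lie below them, include Myf6, Panx1, Dynll1, Itga7, Bop1, Pno1 and Thbd. For Myf6, Dynll1, Itga7 and Pno1, some moderate arrays did lie below every control. Genes that lay above the controls in moderate and below them in severe cachexia include Gadd45b, Fam214a, Lrig1, Pde7a and Vps11.

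Promoters are shown for 4 of the genes that were lower, a pair of FOXO-responsive genes and a pair of clock genes, because they hold the binding letters of the factors known for these genes. They are the 250 bases before the gene's first listed start from RefSeq on GRCm38.p6, on the strand of the gene. In Trim63 (chr4:134314870-134315119, plus strand) and Txnip (chr3:96557707-96557956, plus strand) the capitals mark the forkhead letters GTAAACA or their reverse complement. In Ciart (chr3:95882229-95882478, minus strand) and Per1 (chr11:69098699-69098948, plus strand) they mark the E-box CACGTG, which is the same on both strands.
Trim63: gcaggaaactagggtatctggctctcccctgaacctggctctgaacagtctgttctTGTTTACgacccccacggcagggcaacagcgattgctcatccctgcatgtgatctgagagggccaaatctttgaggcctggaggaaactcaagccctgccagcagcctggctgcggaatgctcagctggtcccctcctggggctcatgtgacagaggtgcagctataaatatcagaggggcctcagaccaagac
Txnip: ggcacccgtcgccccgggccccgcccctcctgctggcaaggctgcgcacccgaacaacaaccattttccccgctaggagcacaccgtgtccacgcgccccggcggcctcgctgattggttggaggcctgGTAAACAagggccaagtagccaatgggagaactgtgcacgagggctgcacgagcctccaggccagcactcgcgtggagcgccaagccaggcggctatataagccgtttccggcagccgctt
Ciart: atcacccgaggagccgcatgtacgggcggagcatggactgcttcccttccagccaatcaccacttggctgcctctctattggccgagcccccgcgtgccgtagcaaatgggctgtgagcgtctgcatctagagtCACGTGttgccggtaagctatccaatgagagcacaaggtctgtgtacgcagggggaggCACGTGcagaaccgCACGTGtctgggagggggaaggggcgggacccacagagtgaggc
Per1: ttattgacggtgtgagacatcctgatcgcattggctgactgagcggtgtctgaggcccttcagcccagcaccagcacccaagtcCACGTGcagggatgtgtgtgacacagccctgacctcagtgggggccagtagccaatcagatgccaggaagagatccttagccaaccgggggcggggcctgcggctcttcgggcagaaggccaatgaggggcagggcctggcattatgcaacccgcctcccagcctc
The forkhead letters begin 194 bases before the start in Trim63 and 121 bases before it in Txnip. Ciart holds 3 E-boxes within 116 bases of the start, and Per1 holds 1, which begins 166 bases before it. Of the genes that were lower, 122 of 153 had a promoter in the RefSeq table. Among these the forkhead letters were found in 8 (6.56%), against 3.09% of all 27025 promoters and 2.12% of those of the genes tested. The E-box was found in 17 (13.9%), against 6.05% of all promoters and 8.80% of those of the genes tested. The AP-1 letters TGACTCA, searched on both strands like the others, were found in 2 (1.64%), against 4.43% of all promoters and 3.05% of those of the genes tested. Of the genes that were higher, 68 of 88 had a promoter, and 1 (1.47%), 4 (5.88%) and 0 held the forkhead letters, the E-box and the AP-1 letters. The 8 lower genes with the forkhead letters include Trim63 and Txnip but not the reported FOXO targets Pdk4, Irs2, Sesn1, Pik3ip1 and Fbxo32. A match of letters is a description and not a site.

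Several reported FOXO targets were lower in severe cachexia, while most of the list did not pass. Of 25 tested genes of a list of FOXO factors and reported targets, 7 were lower (Pdk4, Irs2, Sesn1, Pik3ip1, Trim63, Fbxo32 and Txnip), 1 was higher (Bcl6), and 17 did not pass, with a median difference of -0.74 against 0.02 over all genes tested. The share that passed was 32%, beside 2.45% over all genes tested. The median level of this list above the control mean was 1.55, 1.08 and 1.89 in moderate 5, 9 and 12 and 0.29, 0.81, 0.68 and 0.27 in severe 11, 13, 15 and 16. No severe muscle reached the level of a moderate one. Leaving out 1 mouse gave between 1 gene (without moderate 12) and 9 genes (without severe 11) of this list. Without moderate 12, no list described here kept more than 1 gene that passed.

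Sesn1, a p53 and FOXO target that restrains mTOR complex 1, had log2 levels of 13.21, 12.64 and 13.50 in moderate 5, 9 and 12 and of 10.46, 11.27, 10.97 and 10.22 in severe 11, 13, 15 and 16. All moderate levels were above all severe ones, and the controls lay lower still, at 9.62 to 10.14. The difference was -2.39 (standard error 0.27), a 5.23-fold lower level (adjusted p = 0.0073, n = 3 and 4). Irs2, the substrate that links the insulin receptor to PI3 kinase, had levels of 11.26, 10.69 and 11.19 in moderate and of 8.38, 9.30, 9.09 and 8.89 in severe mice. Severe muscle had a mean of 8.92 ± 0.39 and healthy muscle of 8.42 ± 0.63. The difference for Irs2 was -2.13 (standard error 0.23) at an adjusted p of 0.0073. Pdk4, the kinase that turns off pyruvate dehydrogenase and so spares glucose, was at 14.53, 14.46 and 14.35 in moderate and 13.02, 12.76, 13.28 and 12.69 in severe mice. It stayed above the controls (10.89 to 12.17) in all mice of both stages. Its difference was -1.51 (standard error 0.15, adjusted p = 0.00728), and it passed without any one of the mice. Pik3ip1, an inhibitor of PI3 kinase, was 2.49-fold lower (adjusted p = 0.023), and Txnip, which blocks glucose uptake and thioredoxin, 2.02-fold lower (adjusted p = 0.0491). With 1 mouse left out, Pik3ip1 passed in 4 and Txnip in 1 of 7 fits. Bcl6, a transcriptional repressor, went the other way: its levels were 9.95, 10.23 and 9.88 in moderate, 11.09, 11.18, 10.96 and 11.35 in severe and 11.22 to 11.70 in control mice. The difference of 1.12 passed the test (standard error 0.14, adjusted p = 0.0104). The FOXO factors themselves did not pass. Foxo1 had a difference of -0.74 (adjusted p = 0.0965), Foxo3 of -0.92 (adjusted p = 0.105) and Foxo4 of -0.44 (adjusted p = 0.121).

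Both best-known ubiquitin ligases of atrophy were lower in severe than in moderate cachexia and remained far above healthy muscle in both stages. Trim63, which marks myosin and other thick-filament proteins for breakdown, had levels of 14.13, 13.36 and 13.67 in moderate 5, 9 and 12 and of 11.07, 11.97, 12.16 and 12.62 in severe 11, 13, 15 and 16. The lowest moderate muscle was above the highest severe muscle, and the lowest severe muscle was above the controls (9.30 to 10.03). The difference was -1.77 (standard error 0.32), 3.40-fold (adjusted p = 0.0327). Fbxo32, an F-box protein whose substrates include translation and myogenic factors, had 14.23, 14.01 and 13.97 in moderate and 12.23, 13.20, 12.93 and 13.28 in severe mice, with controls at 10.55 to 11.02. It was 2.23-fold lower (difference -1.16, standard error 0.23, adjusted p = 0.0371). In both genes severe 11 had the lowest level of the tumor-bearing mice. Fbxo32 passed only without severe 11 among the 7 fits that left out 1 mouse, and Trim63 in 3 of them. Of 22 tested genes of the ligase list, 4 were lower (18.2%, beside 2.45% over all genes tested), 0 were higher and 18 did not pass, with a median of -0.07. Trim63 and Fbxo32 are also counted in the FOXO list. Fbxo30 (MUSA1), a ligase of the BMP-controlled atrophy route, was 3.05-fold lower (adjusted p = 0.0157), at 9.77, 9.55 and 10.27 in moderate and 7.76, 8.59, 8.43 and 8.24 in severe mice. Cblb, which degrades signaling proteins such as Irs1, was 1.99-fold lower (adjusted p = 0.0253). The list fell to 0 genes without moderate 5 and without moderate 12, and had 5 without severe 11.

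**Figure D2:**
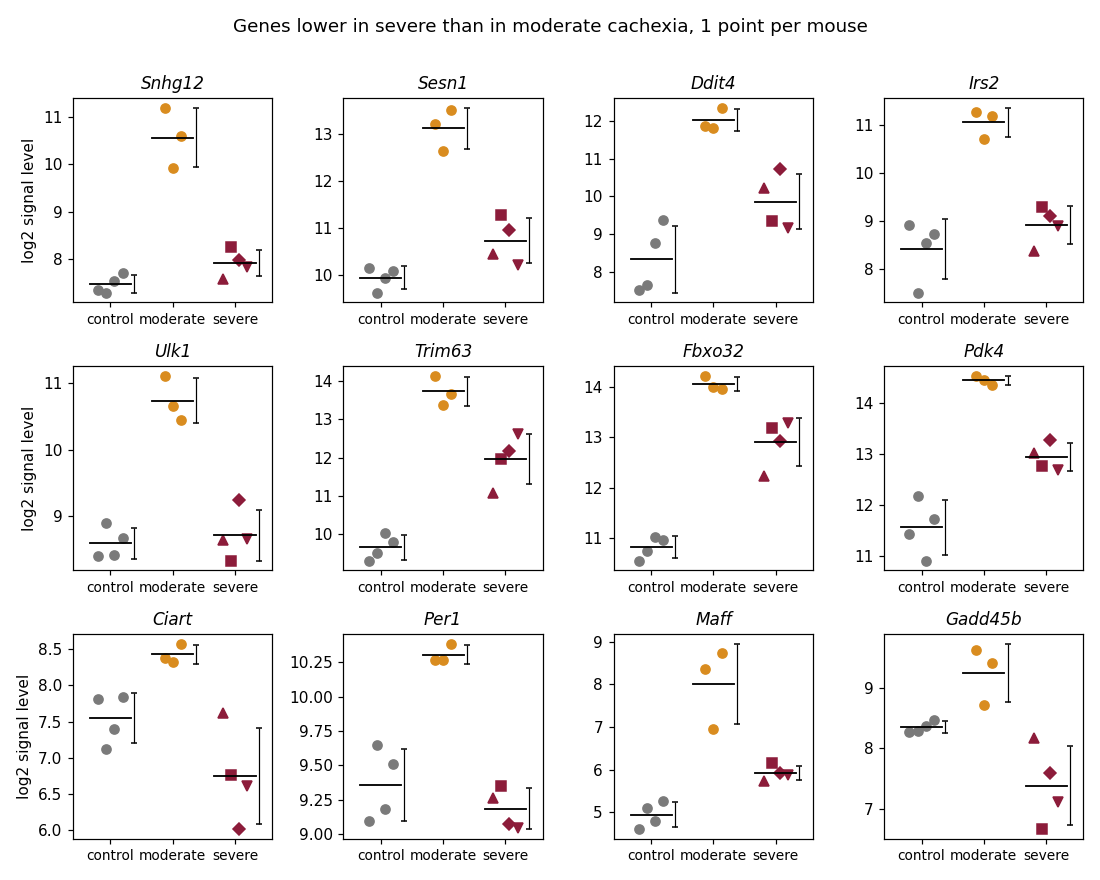
Log2 signal level (y axis, its own scale in each panel) of 12 genes that were lower in severe cachexia, with 1 point per mouse for 4 control (grey), 3 moderate (orange) and 4 severe mice (dark red, where the upward triangle is severe 11, the square 13, the diamond 15 and the downward triangle 16). Lines are means and bars are SDs. In each panel all moderate points lie above all severe points.

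Some genes of insulin, IGF and mTOR signaling differed between the stages. Of 49 tested genes of the insulin, IGF and mTOR list, 6 were lower (Irs2, Sesn1, Flcn, Pik3ip1, Ddit4 and Tbc1d4), 1 was higher (Tbc1d1), and 42 did not pass, with a median of -0.15. The share that passed was 14.3%, beside 2.45% over all genes tested. Irs2, Sesn1 and Pik3ip1 are also counted in the FOXO list. Ddit4 (REDD1), a stress-induced inhibitor of mTOR complex 1, had levels of 11.88, 11.83 and 12.36 in moderate and of 10.21, 9.35, 10.72 and 9.16 in severe mice. Healthy muscle was at 7.51 to 9.37, so that severe 13 and 16 lay at its upper end. The difference was -2.16 (standard error 0.35, adjusted p = 0.0241). Flcn, folliculin, which acts on mTOR complex 1 at the lysosome, was 2.10-fold lower (adjusted p = 0.0116). The 2 related Rab regulators of glucose transporter traffic went in opposite directions. Tbc1d4 (AS160) was 1.81-fold lower (adjusted p = 0.0394), with 7.99, 8.20 and 7.85 in moderate and 7.09, 7.25, 7.43 and 6.85 in severe mice. Tbc1d1 was 2.30-fold higher (adjusted p = 0.0401), with 8.42, 9.28 and 8.35 in moderate and 9.68, 9.68, 10.30 and 9.90 in severe mice. Without 1 mouse, Tbc1d4 passed in 0 and Tbc1d1 in 2 of 7 fits. The count for this list was 0 without moderate 12 and 6 without severe 11.

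In the autophagy machinery, the initiating kinase Ulk1 was lower and the rest of the list did not pass, a share of 2.56% beside 2.45% over all genes tested. Ulk1 had levels of 11.11, 10.65 and 10.45 in moderate and of 8.64, 8.33, 9.25 and 8.66 in severe mice. Its severe levels met the control range of 8.41 to 8.90. The difference was -2.02 (standard error 0.23, adjusted p = 0.0073). It was the only one of 39 tested autophagy genes to pass, and the median of the list was -0.19. Gabarapl1, an Atg8-family protein of the autophagosome membrane, had 12.11, 10.94 and 12.44 in moderate and 9.21, 10.75, 10.08 and 10.22 in severe mice, and missed the threshold (difference -1.76, standard error 0.40, adjusted p = 0.0544). Of 31 tested lysosomal genes, 2 were lower (6.45%). Npc1, the cholesterol exporter of the lysosome, was 3.22-fold lower (adjusted p = 0.0348), with 10.45 in severe 11 and 11.69 to 11.84 in the other severe mice against 12.79 to 13.42 in moderate mice. Its 6 tested probes included 3 others that passed in the same direction and 1 with the opposite sign. Ctsl, the protease cathepsin L, was 2.31-fold lower (adjusted p = 0.0384). No gene passed among 32 tested proteasome subunits, whose median level above control was 0.39 to 0.82 in moderate and 0.23 to 0.79 in severe mice, nor among 28 tested ubiquitin, E1 and E2 genes.

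Some glucocorticoid-responsive, immediate early and clock genes were lower as well, while most members of these lists did not pass. Of 32 tested genes of the glucocorticoid list, 6 were lower (Pdk4, Sesn1, Per1, Ddit4, Arrdc2 and Klf9), 1 was higher (Bcl6) and 25 did not pass, with a median of -0.42. Of these, Pdk4, Sesn1 and Bcl6 also belong to the FOXO list, Sesn1 and Ddit4 to the insulin, IGF and mTOR list and Per1 to the clock list. In all, 21.9% of the tested glucocorticoid list passed, beside 2.45% over all genes tested. The median level of the list above control was 0.89 to 1.58 in moderate and 0.58 to 0.82 in severe mice. Leaving out 1 mouse gave 1 gene (without moderate 12) to 11 genes (without moderate 9).

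Of 31 tested immediate early genes, 4 were lower (12.9%, beside 2.45% over all genes tested) and 0 were higher, with a median of -0.39. Maff, a small Maf factor, had levels of 8.36, 6.95 and 8.74 in moderate and of 5.74, 6.16, 5.92 and 5.86 in severe mice. Severe levels were close to each other and above the controls (4.60 to 5.26), of which 2 of 4 arrays detected the gene. The difference was -2.09 (standard error 0.36, adjusted p = 0.0272), and Maff passed in 2 of the 7 fits that left out a mouse. Zfp36 (tristetraprolin), which destabilizes cytokine messages, was 3.15-fold lower (adjusted p = 0.00781), and Sik1, a salt-inducible kinase that was detected on 0 of 4 control arrays, 3.05-fold lower (adjusted p = 0.0474). Klf6, a zinc finger factor, was 1.73-fold lower (adjusted p = 0.0404). The count was 0 without moderate 5 and without moderate 12.

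Of 16 tested clock genes, 2 were lower (12.5%, beside 2.45% over all genes tested), 0 were higher and 14 did not pass, with a median of -0.26 and 2 positive differences. Per1, a repressor of the clock that glucocorticoids also induce, had 10.27, 10.27 and 10.39 in moderate and 9.26, 9.35, 9.07 and 9.04 in severe mice, with controls at 9.10 to 9.65. Severe 11 and 13 lay within the control range, and severe 15 and 16 lay just below it. Its difference was -1.12 (standard error 0.13, adjusted p = 0.0073). One of its other 2 tested probes passed in the same direction and 1 had the opposite sign. Ciart (CHRONO), another repressor of the clock, was at 8.38, 8.33 and 8.57 in moderate and at 7.62, 6.76, 6.02 and 6.61 in severe mice, against 7.13 to 7.84 in controls. It was 3.19-fold lower (adjusted p = 0.0341) and passed in 1 of the 7 fits that left out a mouse. Median clock levels relative to control were 0.22 to 0.49 in moderate and -0.56 to -0.17 in severe mice. No source used here states the time of day of collection, and its part in these differences was not tested.

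Other genes that were lower belong to several further groups. Snhg12, a noncoding host of small nucleolar RNAs, had the largest difference of the genes that passed: its levels were 11.19, 9.92 and 10.60 in moderate, 7.59, 8.25, 7.98 and 7.84 in severe and 7.29 to 7.71 in control mice, a difference of -2.65 (standard error 0.28, adjusted p = 0.0073). Snhg5, another such host, was 3.12-fold lower (adjusted p = 0.0158), and the other 6 of 8 tested hosts did not pass (25% passed, beside 2.45% over all genes tested). The splicing kinases Clk1 and Clk4 were 2.51-fold and 1.93-fold lower (adjusted p = 0.0272 and 0.0101). They were the 2 genes that passed among 51 tested splicing genes (3.92%, beside 2.45% over all genes tested). Gadd45b, a stress-response partner of MAP kinase signaling, had 9.63, 8.71 and 9.41 in moderate and 8.18, 6.67, 7.59 and 7.12 in severe mice. Severe levels lay below those of all controls (8.26 to 8.48), and the difference was -1.86 (standard error 0.34, adjusted p = 0.0336). Gadd45b passed in 2 of the 7 fits that left out a mouse. Gadd45a, a relative of Gadd45b that is induced in denervated and wasting muscle, was 1.95-fold lower (adjusted p = 0.0241) and stayed above the controls. The amino acid transporters Slc43a1, Slc7a8 and Slc7a2 were 4.24-fold, 2.08-fold and 2.29-fold lower (adjusted p = 0.0371, 0.0399 and 0.044), while the other 18 tested transporters did not pass (14.3% passed, beside 2.45% over all genes tested). Acvr1b (ALK4), a receptor of myostatin and activin, was 2.45-fold lower (adjusted p = 0.0252), and Tgif1, a repressor of TGF-beta signaling, 2.43-fold lower (adjusted p = 0.0483). Slc40a1, the iron exporter ferroportin, was 2.48-fold lower (adjusted p = 0.0367). Steap4, a metalloreductase, was detected on all 3 moderate arrays and was not well above background on any severe array. It entered the test only through the moderate arrays, where it is high, so its fold of at least 1.18 (adjusted p = 0.0453) is a description.

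The myogenic factors Myod1 and Myf6 were higher in severe cachexia. Myod1 had log2 levels of 5.53, 5.85 and 5.12 in moderate 5, 9 and 12 and of 7.02, 8.75, 7.98 and 8.80 in severe 11, 13, 15 and 16, against 7.19 to 7.59 in controls. Moderate muscle lay below healthy muscle, and 3 of the 4 severe muscles lay above it. The difference was 2.64 (standard error 0.40), 6.23-fold (adjusted p = 0.0201). Myf6 (MRF4), the myogenic factor of mature fibers, had 10.72, 11.46 and 10.58 in moderate and 12.06, 12.73, 12.41 and 13.03 in severe mice. Its moderate levels spanned the control range of 10.79 to 11.45, and all severe levels were above it. Myf6 was 3.11-fold higher (adjusted p = 0.0241). Without 1 mouse, Myod1 passed in 4 and Myf6 in 3 of 7 fits. Msc (musculin), which represses myogenic factors, was 2.07-fold lower (adjusted p = 0.0349), with 6.26, 6.49 and 6.59 in moderate and 5.57, 5.03, 5.80 and 5.18 in severe mice. Of 16 tested myogenic factors and partners, these 3 passed (18.8%, beside 2.45% over all genes tested), and the median was 0.09. The satellite cell marker list gained Itga7, the laminin receptor that fibers also carry (1.92-fold, adjusted p = 0.0349), and its other 6 tested genes did not pass.

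Transcripts of the Z-disc proteins Synpo2l and Synpo2 and of the small heat shock proteins Cryab and Hspb3 were below healthy muscle in moderate cachexia and higher in severe than in moderate cachexia. Synpo2l (CHAP), an actin-binding protein of the Z-disc, had levels of 6.40, 6.82 and 6.40 in moderate and of 8.74, 8.95, 8.35 and 8.49 in severe mice. Controls were at 8.97 to 9.40, just above the severe levels. The difference was 2.10 (standard error 0.19, adjusted p = 0.00728), and Synpo2l passed without any one of the mice. Synpo2 (myopodin), its relative in the Z-disc, was 2.81-fold higher (adjusted p = 0.0252), with 5.73, 6.65 and 6.28 against 8.09, 7.33, 7.78 and 7.65. Cryab, the small heat shock protein that protects desmin and titin, had 10.88, 10.93 and 11.13 in moderate and 12.38, 12.41, 11.79 and 12.34 in severe mice, of which severe 15 was the lowest. It was 2.39-fold higher (adjusted p = 0.0116). Hspb3, a muscle small heat shock protein, was 2.92-fold higher (adjusted p = 0.0351), at 7.89, 9.24 and 8.31 in moderate and 10.48, 9.78, 9.89 and 9.95 in severe mice. With 1 mouse left out, Synpo2 passed in 3, Cryab in 4 and Hspb3 in 2 of 7 fits. Cct5, a subunit of the chaperonin that folds actin and tubulin, and Stip1, which links Hsp70 and Hsp90, were 1.90-fold and 1.65-fold higher (adjusted p = 0.0453 for both). Of 46 tested heat shock genes 4 were higher (8.7%) and 0 were lower, with a median of 0.18. Of 58 tested sarcomere and Z-disc genes 3 were higher (Synpo2l, Cryab and Synpo2, 5.17%) and 0 were lower, with a median of 0.03. Over all genes tested 2.45% passed, and Cryab is counted in both lists. The heat shock count was 0 without moderate 5, 12 or severe 16, and 6 without severe 11.

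**Figure D3:**
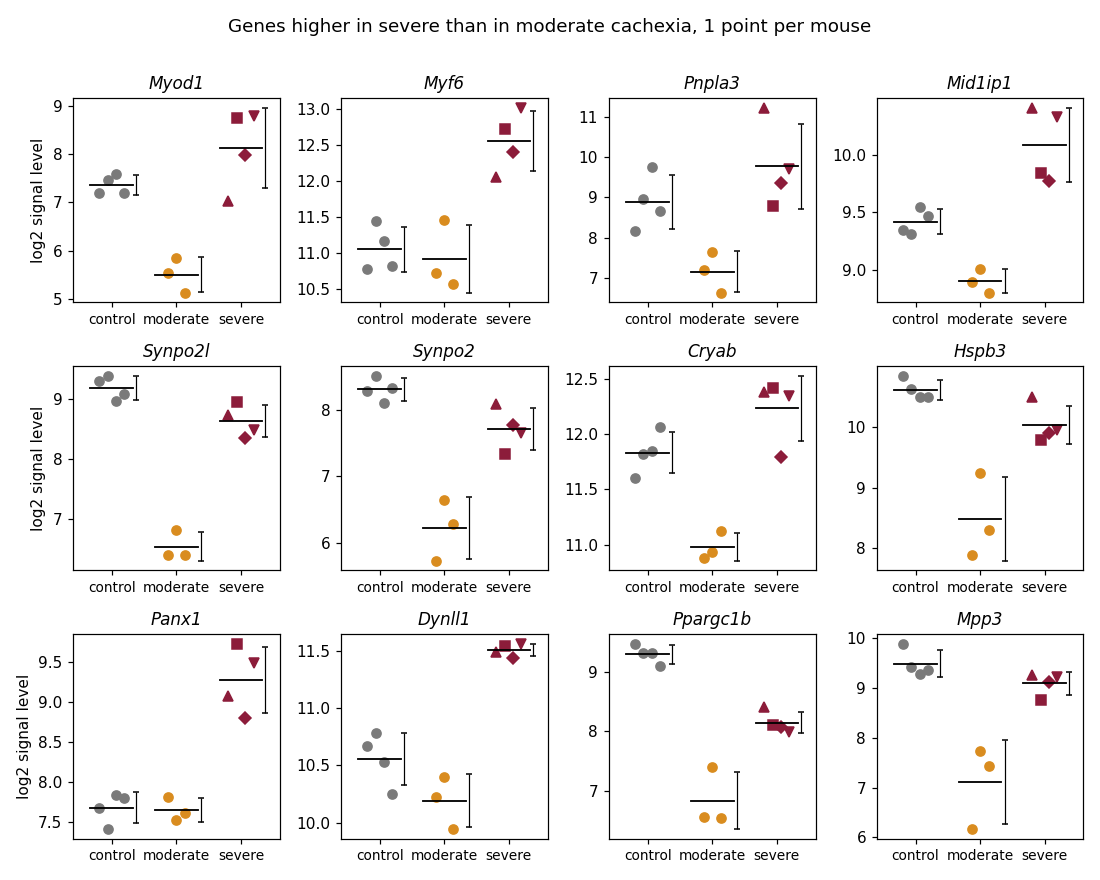
Log2 signal level (y axis, its own scale in each panel) of 12 genes that were higher in severe cachexia, with 1 point per mouse for control (grey), moderate (orange) and severe mice (dark red, with the same shapes for severe 11, 13, 15 and 16 as among the lower genes). Lines are means and bars are SDs. All severe points lie above all moderate points, and those of Myf6, Panx1, Dynll1 and Mid1ip1 also lie above all control points.

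Single genes of other kinds were also higher. Panx1, the channel pannexin 1, had 7.81, 7.52 and 7.61 in moderate and 9.07, 9.73, 8.80 and 9.49 in severe mice, with controls at 7.41 to 7.83. Moderate and healthy muscle overlapped, and the difference of 1.63 (standard error 0.22) passed the test (adjusted p = 0.0118). Dynll1, a light chain of dynein that also binds neuronal nitric oxide synthase, had 10.22, 10.40 and 9.94 in moderate and 11.49, 11.54, 11.44 and 11.56 in severe mice, so that severe mice differed from each other by little. It was 2.50-fold higher (adjusted p = 0.00728), passed without any one of the mice, and lay above the controls (10.25 to 10.78) on all severe arrays. Pnpla3 (adiponutrin), a lipid droplet hydrolase induced by feeding, had 7.19, 7.65 and 6.62 in moderate and 11.23, 8.78, 9.36 and 9.70 in severe mice, with the highest level in severe 11. It was 6.12-fold higher (adjusted p = 0.0349) and passed in 3 of the 7 fits that left out a mouse. Mlxipl (ChREBP), a glucose-responsive factor of fat synthesis, was 1.76-fold higher (adjusted p = 0.0327), and Mid1ip1, an activator of acetyl-CoA carboxylase, 2.28-fold higher (adjusted p = 0.0201). Of 37 tested sterol and fatty acid synthesis genes, 2 were higher (5.41%, beside 2.45% over all genes tested) and 0 were lower, with a median of 0.38. The median of this list relative to control was -0.63 to -0.54 in moderate mice, 0.50 in severe 11 and -0.37 to -0.17 in the other severe mice. The median of white fat cell markers was 0.20 in severe 11 and -1.45 to -0.80 in the other severe mice, and its part in these lipid genes was not tested. Ppargc1b, a coactivator of mitochondrial genes, was 2.47-fold higher (adjusted p = 0.0263) and remained below the controls on every array of both stages. Mpp3, a scaffold of cell junctions, was 3.93-fold higher (adjusted p = 0.0253), with 6.17, 7.73 and 7.44 in moderate and 9.25, 8.76, 9.12 and 9.21 in severe mice. For Heg1, Dusp5, Mzf1, Samd5, Ephx3 and Cxxc5 the probe was not well above background on any moderate array, and severe levels were at least 1.15-fold (Mzf1) to 1.43-fold (Dusp5) higher. These genes entered the test only through the severe arrays, where they are high, so this is a description.

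Several lists held no gene that passed, where 2.45% of all genes tested passed, so that lists of this size would hold few at that share. Among 74 tested respiratory chain and ATP synthase genes, 54 tested cytosolic ribosomal proteins, 40 tested translation factors, 34 tested glycolysis and glycogen genes, 36 tested interferon-responsive genes and 31 tested chemokine and receptor genes, 0 were higher and 0 were lower. Median differences were -0.09, 0.11, 0.10, -0.05, 0.15 and 0.09 in that order. Of 44 tested acute phase and IL-6 signaling genes, 1 was lower (Pim3, a kinase induced by cytokines, 2.67-fold, adjusted p = 0.00728) and 0 were higher. Stat3, the transcription factor that IL-6 activates, was at 11.69, 11.43 and 11.54 in moderate and 11.78, 11.64, 11.84 and 11.78 in severe mice (difference 0.21, standard error 0.11, adjusted p = 0.334). Its feedback inhibitor Socs3 had a difference of 0.39 (standard error 0.30), which did not pass (adjusted p = 0.498). Cebpd, a factor of the acute phase response, had -0.63 (standard error 0.19) and did not pass either (adjusted p = 0.105). The acute phase genes Saa1 and Hp had differences of 0.14 and 0.43 (standard errors 0.35 and 0.56), with adjusted p-values of 0.863 and 0.713.

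Some large differences did not pass because mice of a stage differed widely. Fga, the alpha chain of fibrinogen, had levels of 7.80, 7.29 and 8.74 in moderate and of 4.78, 4.65, 8.21 and 5.67 in severe 11, 13, 15 and 16. Severe 15 lay among the moderate mice, and 2 of 4 severe arrays detected the gene. The difference of -2.12 had a standard error of 0.76 (adjusted p = 0.157). Fgg, the gamma chain, had 7.03, 6.81 and 7.19 in moderate and 5.04, 4.75, 7.40 and 5.43 in severe mice, with the same mouse high (adjusted p = 0.187). Actc1, the cardiac actin of immature muscle, had 7.67, 8.91 and 6.62 in moderate and 6.10, 6.47, 6.63 and 6.46 in severe mice, against 10.18 to 10.37 in controls (difference -1.32, standard error 0.43, adjusted p = 0.127). Acta1, the skeletal actin, had a difference of -0.01 (standard error 0.15), and Myh8, the perinatal myosin, of 0.24 (standard error 0.25), with adjusted p-values of 0.986 and 0.625. Lcn2, an iron-binding lipocalin of neutrophils and stressed cells, had 9.83, 7.29 and 11.01 in moderate and 10.48, 11.38, 10.49 and 11.91 in severe mice (adjusted p = 0.231).

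**Figure D4:**
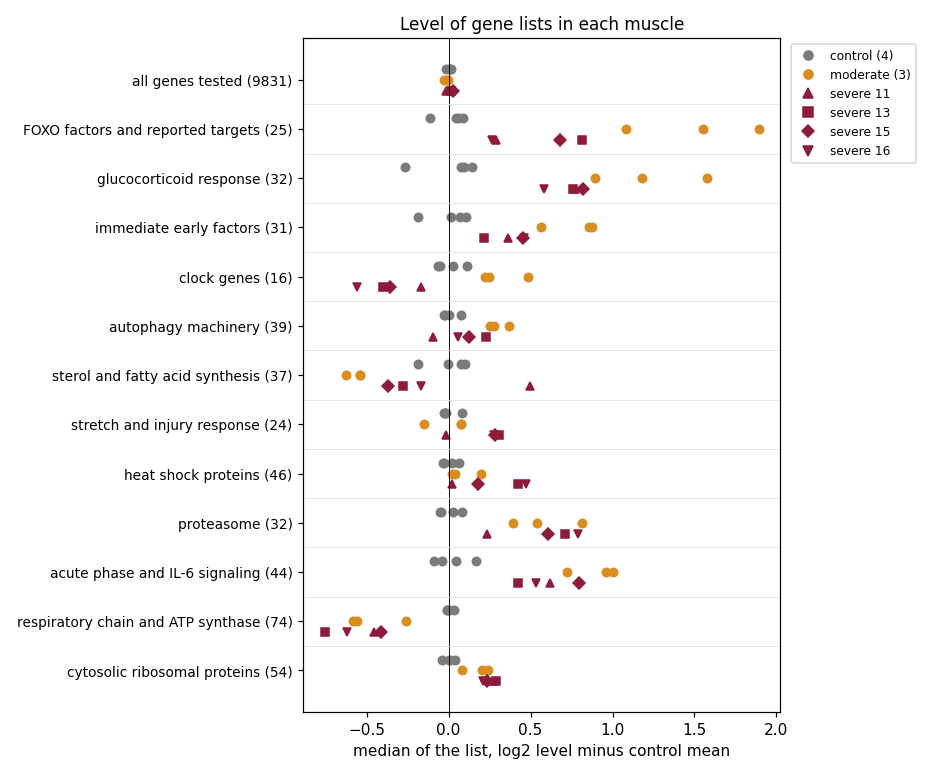
Median of each gene list in each mouse (x axis, log2 level minus the mean of the 4 controls), with the number of tested genes in parentheses and 1 point per mouse (control grey, moderate orange, severe dark red by shape). Moderate and severe mice lie apart for FOXO targets, glucocorticoid response, immediate early, clock, autophagy, and sterol and fatty acid synthesis genes. They overlap for proteasome, acute phase, respiratory chain and ribosomal protein genes.

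Muscles within a stage were not alike, and severe 11 stood apart from the other severe mice. Pearson's r between arrays, across the tested probes, lay between 0.981 and 0.986 within moderate, 0.962 and 0.991 within severe and 0.952 and 0.985 across the stages, so that the highest r across the stages (moderate 9 with severe 15) lay within the range found in each stage. The first principal component held 38.9% of the variance, with scores of -35.85 to -14.72 for the moderate mice, 7.0 to 12.7 for severe 13, 15 and 16 and 45.27 for severe 11. On the second (28.5%), severe 13 and 16 scored -37.99 and -23.36, against 4.23 for severe 15 and 23.8 for severe 11. Moderate mice scored 0.89 to 27.58 on it. Macrophage markers (18 of 22 tested) had a median level above control of 1.41 in severe 11, 0.39 to 0.48 in the other severe mice and 0.46 to 0.78 in moderate mice. Red blood cell markers (5 of 12 tested) had a median of 1.44 in severe 11 and 0.93 in severe 13, against -0.09 to 0.16 in severe 15 and 16 and -0.53 to -0.01 in moderate mice. Neutrophil markers (7 of 20 tested) had 0.78 to 2.16 in severe and 0.24 to 1.22 in moderate mice. In 14 marker lists of other cells and fiber types 1 gene passed, Itga7, and of the lymphocyte markers 2 of 20 could be tested. The label of the tissue held: skeletal actin Acta1 was at 13.86 to 14.37 on all 11 arrays, and fast fiber markers (16 of 16 tested) lay within -0.27 to 0.06 of the control mean. Slow and oxidative fiber markers (13 of 14 tested) were less even. Their medians were -2.15 to -0.60 in moderate, -1.48 to -0.76 in severe and -0.58 to 0.44 in control mice. What the mixture of cells adds to the differences between the stages was not tested, and without severe 11 the count of genes that passed was 240, of which 190 were among the 241.

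**Figure D5:**
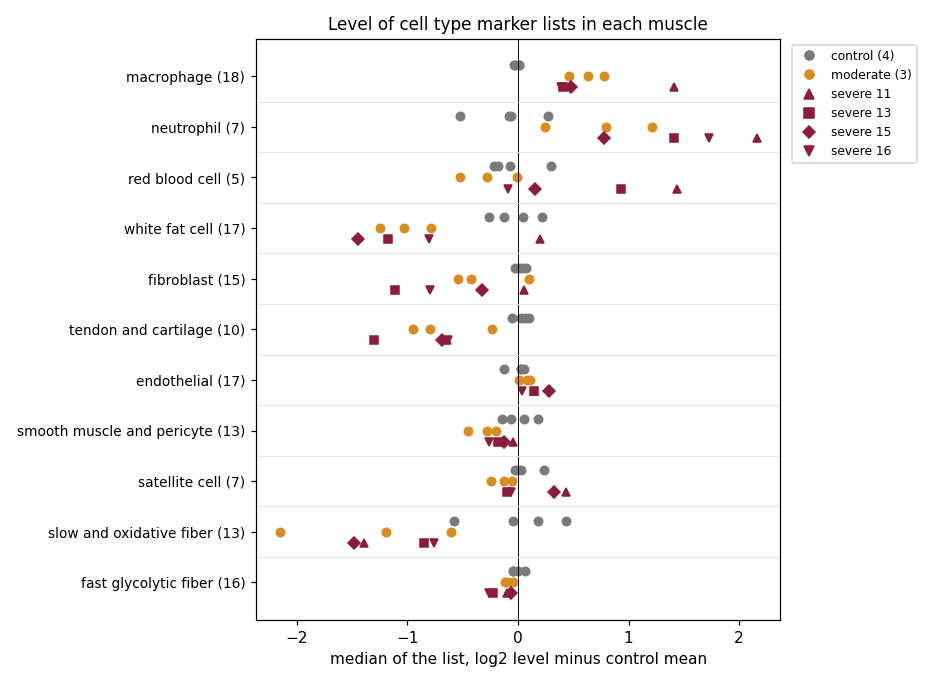
Median of each marker list in each mouse (x axis, log2 level minus the mean of the 4 controls), with the number of tested genes in parentheses and 1 point per mouse (control grey, moderate orange, severe dark red by shape). Severe 11 has the highest macrophage, neutrophil, red blood cell and white fat cell levels of the 4 severe mice.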

How the data were processed

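Quadriceps RNA of 11 samples was measured with 1 array per sample. The intensity values, as deposited by the authors, were BeadStudio signals after background subtraction and normalization (28.5% below 0, and sorted columns differed by at most 0.319). Detection p-values were deposited beside them. The deposited ratio values were the signals floored at 1 over the control median. Compared after sorting within each group, 100% agreed to within 0.001 of the value or were very low ratios on both sides. Signals were corrected by limma's neqc (limma 3.58.1, R 4.3.3, offset 16, quantile normalization over 11 arrays, log2). The 7 arrays of both stages were fitted with 2 group means (lmFit, eBayes with an intensity trend). P-values were adjusted over all 18181 tested probes, and each gene was read from its brightest. Probes with 1 symbol in the platform annotation numbered 34885, with several 18 and with none 10378. Of the tested probes, 700 passed the filter through the moderate arrays alone and 1019 through the severe arrays alone, which favors a difference. Whether each array is a separate animal, and which chip held it, is not given in the labels, so p-values measure the spread between these samples. The precision is limited by the number of arrays.

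The comparison and the gene lists were chosen with earlier results of these data known. Genes to name were the 15 largest differences in each direction among genes that passed without overlap, up to 4 members of each list by adjusted p (up to 2 by p where none passed), and genes the study discusses, of which the text gives a selection. Arrdc2, Klf9, Tbc1d1, Tbc1d4, Mid1ip1, Gabarapl1, the Foxo genes the 6 genes with a bound on higher levels and the genes listed only by their position to the controls were named after their values were seen. A bound sets the detected stage against the higher of the lowest detected signal on each array and the probe's own. The methods' t-test was one alternative.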

Additional observations from a re-analysis of the deposited data

Results flagged for a closer look

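In groups of 4, a severe muscle far from the other severe muscles by Dixon's criterion was found in 6 of 55 gene lists and 5 of 134 named genes. Chance gives such a muscle in about 1 in 20 groups. The muscle was severe 11 in 7 of these 11 cases, severe 13 in 3 and severe 15 in 1. Median levels are given as log2 values relative to the controls. In severe 11, macrophage markers were at 1.41 (others 0.39 to 0.48), chemokines and cytokine receptors at 0.60 (others 0.13 to 0.20), stretch and injury response genes at -0.015 (others 0.28 to 0.31) and aminoacyl-tRNA synthetases at -0.018 (others 0.18 to 0.20). In severe 13, tendon and cartilage markers were at -1.30 (others -0.69 to -0.63) and polyamine and amino acid metabolism at -0.40 (others -0.25 to -0.22).

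Among single genes, log2 levels in severe 11 were 10.45 for Npc1 (others 11.69 to 11.84), 7.82 for Snhg5 (others 8.58 to 8.68) and 10.09 for Loxl1, a matrix cross-linking enzyme (others 9.32 to 9.36). Cryab was at 11.79 in severe 15 (others 12.34 to 12.41), and Rgs5, a pericyte gene, at 9.23 in severe 13 (others 9.39 to 9.41). The causes were not tested.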

How the results depend on the processing

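The direction of all 241 differences was the same in every other setting wherever a value was obtained, while the number of genes that passed varied. Most of the named genes kept their side of the threshold under other background, offset, scaling and variance choices, the mean of probes, detection on all 7 arrays and the deposited ratios, where 201 to 246 genes passed in all. With all 11 arrays in 1 fit, in which the spread was also read from the controls, 1348 probes passed (614 higher, 734 lower) and 760 genes (348 higher, 412 lower). Without the detection filter, a setting that adjusts over more probes, 188 probes passed (56 higher, 132 lower) and 107 genes (35 higher, 72 lower). The methods' t-test gave 7 probes (6 higher, 1 lower) and 6 genes (5 higher, 1 lower) after adjustment, and 1863 genes at an unadjusted p under 0.05. With 1 mouse left out, 9 to 417 probes passed (3 to 168 higher, 6 to 249 lower) and 4 to 240 genes (2 to 98 higher, 2 to 142 lower). The lists with at least 1 gene that passed, 30 of 56 in the main result, numbered 6 to 32 then. Trim63 and Fbxo32 did not pass with the deposited ratios (adjusted p = 0.177 and 0.184), and Fbxo32 did not with the mean of its probes (adjusted p = 0.052). The causes were not tested.

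Replicate numbers of the labels occur only with the deposited ratios. Deviations from the stage mean had r = -0.217, -0.356 and -0.122 for the 3 pairs of samples with the same number. Pairs with unlike numbers had r of -0.214 to 0.284. With so few arrays per stage, these values cannot decide whether the numbers pair the mice. The replicate block on these ratios left 5 probes (3 higher, 2 lower) and 3 genes (3 higher, 0 lower). A fit of the brightest probes alone, added after the data were seen, gave 221 genes. Among genes with several tested probes, another probe had the opposite sign in 4 that were lower and 2 that were higher, and none of these other probes passed. Signal near background limits 9 of the genes that passed to a bound, and 45 genes tested were detected on no moderate and 14 on no severe array.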
